A study of Mus musculus with 6 samples.

Results

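Osteocalcin, the most abundant non-collagen protein of bone, is encoded in the mouse by a cluster of neighbouring genes, Bglap, Bglap2 and Bglap3. Their signal was followed here over 6 arrays of a myeloid progenitor line. Every array probe whose RefSeq accession belongs to 1 of these 3 genes was taken, which gave 4 of the 55681 probes on the array. Bglap2 had 1 probe (A_55_P2106803), Bglap3 had 3 (A_55_P2106801, A_55_P2086507 and A_66_P101477), and Bglap had none, so that 2 of the 3 genes were represented. The genes were picked because their signal rises most in the KLF4-labelled cells of these same arrays, so their differences are given as a description, without a test.

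Tot2 is a myeloid progenitor line derived from an Irf8 knockout mouse, and all 3 groups share that background and growth in granulocyte-macrophage colony-stimulating factor at 5 ng/ml with 20% serum. Cells received the retrovirus MSCV-KLF4FLAG, the retrovirus MSCV-IRF8FLAG or the empty control MSCV-puro, with polybrene at 4 µg/ml. They were selected with puromycin at 2 µg/ml from 48 hr and were harvested on day 4. IRF8 and KLF4 are transcription factors of the monocyte lineage, and the study set the cells they produce against the control in 2 independent experiments. The replicate number of an array was taken as its experiment, with 1 array per group in each. The sample labels give only that number. Total RNA of every culture was labelled with Cy3 and hybridised alone. The 2 arrays per group limit the precision, and for a single probe the smallest two-sided p that an exact permutation test of 2 arrays against 2 can give is 0.333.

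Osteocalcin is a small secreted protein that carries γ-carboxyglutamic acid, a calcium-binding residue made by a vitamin K-dependent carboxylase, and it binds the mineral of bone. Osteoblasts and osteocytes are its known source, and Bglap and Bglap2 are the osteoblast copies. Bglap3, also called osteocalcin-related gene, is known for expression outside bone, for example in kidney. RUNX2, ATF4 and the vitamin D receptor are factors known to act on osteocalcin promoters. The 3 genes are near-identical in sequence, so a probe named for one may read another, Bglap included. The signal is therefore described as that of osteocalcin transcripts, with the probe's gene as the annotation names it.

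The promoter sequences are shown because the Bglap and Bglap3 windows aligned over no more than 16 bases, so that these copies differ here although their transcripts are near-identical. RefSeq's table (GRCm38.p6) matched 2 of the 3 genes, Bglap and Bglap3. Each line gives the 250 bases before an annotated start, on the minus strand, and capitals mark a RUNX motif (ACCACA), a KLF and Sp box (CCNCNCCC) or a TATA motif (TATANA) found on either strand. The first is Bglap at chr3:88384467-88384716, the second the first annotated start of Bglap3 at chr3:88372742-88372991, and the last another start of Bglap3 (start 3) at chr3:88369832-88370081.
Bglap: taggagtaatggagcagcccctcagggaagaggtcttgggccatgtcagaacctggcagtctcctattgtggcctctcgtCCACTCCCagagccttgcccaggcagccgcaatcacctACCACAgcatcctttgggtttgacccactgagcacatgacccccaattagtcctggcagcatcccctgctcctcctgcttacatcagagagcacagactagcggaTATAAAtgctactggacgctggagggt
Bglap3 start 1: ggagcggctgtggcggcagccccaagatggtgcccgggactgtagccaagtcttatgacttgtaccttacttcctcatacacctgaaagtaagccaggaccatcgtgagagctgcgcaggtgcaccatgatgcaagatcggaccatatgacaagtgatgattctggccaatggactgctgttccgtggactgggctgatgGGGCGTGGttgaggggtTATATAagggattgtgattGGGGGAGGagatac
Bglap3 start 3: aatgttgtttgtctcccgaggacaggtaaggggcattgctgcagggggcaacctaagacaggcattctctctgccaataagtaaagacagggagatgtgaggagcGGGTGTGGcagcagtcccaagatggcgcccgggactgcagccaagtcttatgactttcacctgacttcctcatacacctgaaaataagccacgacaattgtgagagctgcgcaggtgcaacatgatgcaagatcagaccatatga

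The Bglap window held a RUNX motif 132 to 127 bases before the start, a KLF and Sp box 170 to 163 bases before it and a TATA motif 27 to 22 bases before it. The window at Bglap3 start 1 had no RUNX motif. It held 2 KLF and Sp boxes on the other strand, 50 to 43 and 14 to 7 bases before the start, with a TATA motif between them at 33 to 28 bases that reads on both strands. The window at Bglap3 start 3 had 1 KLF and Sp box on the other strand, 145 to 138 bases before the start, and the remaining Bglap3 window had no match. The windows at Bglap3 starts 1 and 3 resembled each other: 136 of 150 aligned bases were identical (90.7%), with a longest shared run of 20 bases. Among 32851 annotated promoter windows of this length in the mouse, 14% held the RUNX motif, 45.9% the KLF and Sp box and 22.6% the TATA motif. None of the 4 windows held an AP-1 motif (TGANTCA, in 6.75% of all windows), a vitamin D receptor half-site (AGGTCA, in 14%) or an interferon response motif (GAAANNGAAA, in 2.98%). A match is a description of these letters, not a binding site.

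The arrays held 62976 spots, and the 75th percentile of the processed signal, to which each array was scaled, lay between 436 and 974. On each array 47.1% to 56.8% of probes stood well above background, a call the scanning software makes per spot, and no spot was saturated. The probe for Klf4 did not separate the KLF4-labelled arrays from control: its log2 signal relative to the 75th percentile was -1.56 and -1.33 in KLF4-labelled cells, 4.46 and 4.61 in IRF8-labelled cells, and -1.62 and -1.28 in control cells. Which stretch of the transcript this probe reads, and whether the retrovirus carries it, was not analysed here, so the groups are called by their labels. The Irf8 probe was 3.04-fold higher in KLF4-labelled cells than in control (log2 difference 1.60, SE 0.10, limma adjusted p = 6.06e-04) and 5.39-fold higher in IRF8-labelled cells than in control. It was above background on all 6 arrays, at 0.49 and 0.64 in control cells, although the line derives from an Irf8 knockout. Which transcript the Irf8 probe reads in these cells was not analysed here. Myeloid markers marked all 6 arrays: 10 of 10, among them Ptprc, Spi1 and Mpo, were above background everywhere. Their summed level (linear, the 75th percentile set to 1) was 781 to 1131 on KLF4-labelled, 897 to 1138 on IRF8-labelled and 901 to 1245 on control arrays. These sums are weighted to the brightest markers, and single markers moved. In KLF4-labelled against control cells 5 rose and 0 fell (limma adjusted p under 0.05), beside 10.4% and 8.86% of all tested genes. With the experiment as a block 7 rose and 2 fell, beside 16.5% and 34.4%. In IRF8-labelled against control cells 7 rose and 2 fell, beside 25.8% and 35.7%. In KLF4-labelled against IRF8-labelled cells 3 rose and 6 fell, beside 26.8% and 23.7%.

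Osteocalcin transcripts gave a strong signal in KLF4-labelled cells, a weak one in IRF8-labelled cells and one at or near background in control cells. The Bglap2 probe read 63841 and 93354 units of processed signal in KLF4-labelled cells, 96.1 and 207 in IRF8-labelled cells, and 13.1 and 31.6 in control cells. The brightest Bglap3 probe, A_55_P2106801, read 65100 and 100282 units in KLF4-labelled cells, 129 and 280 in IRF8-labelled cells, and 35.0 and 72.1 in control cells. Both probes were above background on both KLF4-labelled and both IRF8-labelled arrays, and of the control arrays only on the second. The second Bglap3 probe, A_55_P2086507, read 42095 and 65236 units in KLF4-labelled cells, 66.5 and 148 in IRF8-labelled cells, and 14.8 and 21.4 in control cells, neither of which was above background. These 3 probes thus gave the same order of groups in both experiments. For comparison, 19.2% of the 13247 tested genes were called at an adjusted p of 0.05 between KLF4-labelled and control cells, 50.5% between KLF4-labelled and IRF8-labelled cells, and 61.5% between IRF8-labelled and control cells. As the osteocalcin genes were picked on these signals, nothing is read from their count against these shares.

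The remaining Bglap3 probe, A_66_P101477, gave no usable level. It read 3.65 and 4.76 units in KLF4-labelled cells, 3.66 and 4.75 in IRF8-labelled cells, and 5.67 and 4.46 in control cells, and it was not well above background on any array. It did not pass the filter on dim probes, so 3 of the 4 probes passed. These probes passed through the KLF4-labelled group, in which their signal was strong, and the IRF8-labelled group, in which it was weak but above background. The Bglap3 probes therefore disagreed, and the gene was represented by its brightest probe in what follows.

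**Figure D1:**
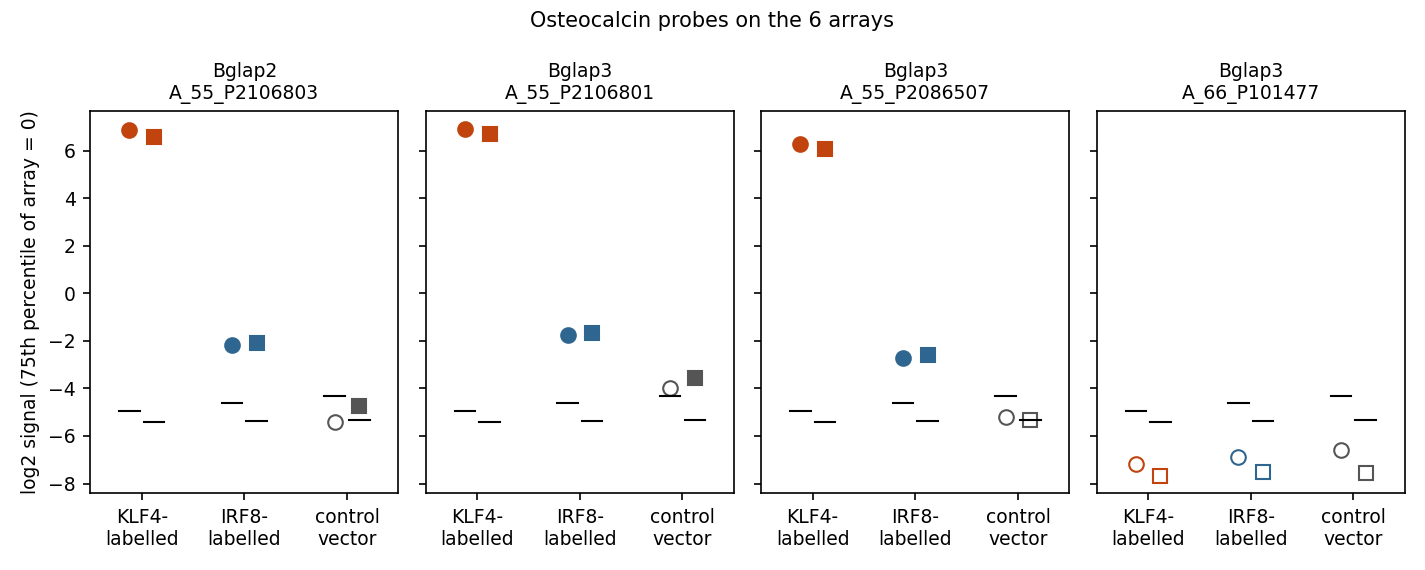
Log2 signal of the 4 osteocalcin probes (y axis, 75th percentile of each array set to 0) in KLF4-labelled, IRF8-labelled and control cells; circles are arrays of the first experiment, squares of the second, open symbols are not well above background, and short lines mark the lowest signal well above background on that array. In 3 probes the KLF4-labelled arrays lie between 6.07 and 6.92, above the IRF8-labelled arrays at -2.71 to -1.65 and the control arrays at -5.40 to -3.56, while A_66_P101477 is open on every array.

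On the log2 scale relative to the 75th percentile, Bglap2 averaged 6.74 ± 0.22 in KLF4-labelled cells, -2.13 ± 0.07 in IRF8-labelled cells and -5.07 ± 0.46 in control cells (SD, n = 2 each). Bglap3 averaged 6.80 ± 0.17, -1.70 ± 0.07 and -3.77 ± 0.29 in the same order of groups (SD, n = 2 each). For these 2 probes the spread was widest in control cells, where they sat nearest to background. For A_55_P2086507 it was narrowest there, with an SD of 0.07 in control, 0.10 in IRF8-labelled and 0.16 in KLF4-labelled cells.

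The difference between KLF4-labelled and control cells was 11.81 (SE 0.24) for Bglap2, a 3597-fold higher signal, and 10.58 (SE 0.17) for Bglap3, a 1526-fold higher signal. For A_55_P2086507 it was 11.45 (SE 0.13), which is given as at least 2038-fold, since the control level is only a bound. Both probes were above background in control cells only in the second experiment, in which Bglap2 was 2582-fold and Bglap3 1217-fold higher, so the means over both experiments rest partly on a control signal not above background. The SEs of Bglap2 and of A_55_P2106801 come from 1 limma fit over the 13247 genes tested, and that of A_55_P2086507 from a fit of the same form over single probes. In bulk RNA, more cells of an expressing type and more RNA per cell cannot be told apart.

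Between KLF4-labelled and IRF8-labelled cells, with both sides measured on every array, Bglap2 differed by 8.87 (SE 0.24), or 469-fold. Bglap3 differed by 8.51 (SE 0.17), or 363-fold, and A_55_P2086507 by 8.82 (SE 0.13), or 453-fold. In the first and second experiment Bglap2 was 540-fold and 407-fold higher, and Bglap3 409-fold and 323-fold. IRF8-labelled cells were in turn above control, with the same limit on the control signal, by 2.94 (SE 0.24; 7.67-fold) for Bglap2 and by 2.07 (SE 0.17; 4.20-fold) for Bglap3, and at least 4.50-fold for A_55_P2086507. All 3 comparisons share arrays, so they are not independent of each other.

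The osteocalcin genes were picked for their rise in KLF4-labelled cells, so a rank near the top follows from that choice and is only described. Over all 13247 tested genes Bglap2 and Bglap3 were 2nd and 4th by KLF4-labelled minus control cells, and 2nd and 3rd by KLF4-labelled minus IRF8-labelled cells. Among the 12654 tested genes above background on at least 1 array of both KLF4-labelled and control cells, Bglap2 was 2nd and Bglap3 3rd by the difference between these groups. The gene above them was Wfdc17, 7964-fold higher in KLF4-labelled and 3864-fold higher in IRF8-labelled cells than in control. Gpnmb, Ahnak and Ctss had fitted differences close to those of Bglap2 and Bglap3 but were not above background in control cells. They were at least 479.5-fold, 448-fold and 604-fold above control in KLF4-labelled cells, and at least 704-fold, 1949-fold and 8051-fold in IRF8-labelled cells. By KLF4-labelled minus IRF8-labelled cells Bglap2 and Bglap3 were 1st and 2nd of 12839 genes measured on both sides, and by IRF8-labelled minus control cells 334th and 618th of 12610.

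Markers of other cell types were read beside these values. Of the 6 osteoblast markers, 2 were above background on the KLF4-labelled arrays (Runx2 and Col1a1), with a summed level of 0.224 to 0.280, against 1 and 0.125 to 0.176 on IRF8-labelled arrays and 2 to 3 and 0.315 to 0.687 on the control arrays. Sp7, which encodes the osteoblast factor osterix, and Dmp1 and Phex, genes of osteocytes, were not above background on any array. Of the 10 fibroblast and packaging cell markers 4 to 5 were above background on KLF4-labelled, 4 on IRF8-labelled and 3 to 4 on control arrays, with summed levels of 8.80 to 9.49, 12.6 to 14.4 and 4.55 to 5.20. Pdgfra, Pdgfrb, Dcn, Lum and Postn of that list were above background nowhere. Of the 4 tested, 2 rose and 0 fell in KLF4-labelled against control cells, beside 10.4% and 8.86% of all tested genes. Thy1 was 21.6-fold higher (limma adjusted p = 3.07e-04), and Acta2, the brightest of the list on every array, rose by 0.72 (adjusted p = 0.0302). Col1a2 differed by 0.21 and Tagln by -0.44 (adjusted p = 0.359 and 0.0677, and 0.198 and 0.0296 with the experiment as a block). In KLF4-labelled against IRF8-labelled cells Thy1 rose and the other 3 fell, beside 26.8% and 23.7%.

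Other lineages gave mixed values, whose part in the osteocalcin signal was not tested. Of 8 megakaryocyte and platelet markers, 2 were above background on KLF4-labelled, 2 to 3 on IRF8-labelled and 1 to 2 on control arrays, with summed levels of 7.97 to 8.71, 2.46 to 2.72 and 0.248 to 0.260. Vwf, von Willebrand factor, carried that sum and was 220-fold higher in KLF4-labelled cells than in control (limma adjusted p = 6.29e-04, above background on 1 of the 2 control arrays), whereas Pf4, Ppbp, Gp9, Gp1ba and Gp6 were above background nowhere. Of 8 osteoclast markers, 7 were above background on KLF4-labelled, 6 on IRF8-labelled and 4 on control arrays, with summed levels of 12.1 to 12.8, 16.9 to 18.2 and 1.56 to 1.69. Of the 7 osteoclast markers tested, 5 rose and 0 fell in KLF4-labelled against control cells, beside 10.4% and 8.86% of all tested genes. With the experiment as a block 5 rose and 1 fell, beside 16.5% and 34.4%. In KLF4-labelled against IRF8-labelled cells 2 rose (Acp5 and Mmp9) and 3 fell (Ocstamp, Oscar and Atp6v0d2), beside 26.8% and 23.7%. These genes were named after their values were seen. In IRF8-labelled against control cells 4 rose and 2 fell, beside 25.8% and 35.7%.

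Among the genes beside the cluster on the chromosome, Lmna alone rose in KLF4-labelled against control cells. Of the 10 annotated genes on each side, 11 were on the array and 10 were tested, and Rhbg was not above background on any array. In KLF4-labelled against control cells 1 of the 10 rose and 2 fell, with a median log2 difference of -0.33. Over all 13247 tested genes 2547 (19.2%) were called at an adjusted p of 0.05, 10.4% higher and 8.86% lower, with a median of -0.16. With the experiment as a block, 3 of the 10 rose and 6 fell, where 16.5% of all tested genes rose and 34.4% fell.

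Lmna encodes the nuclear lamins A and C. Its log2 signal was 3.72 and 3.89 in KLF4-labelled cells, 5.49 and 5.49 in IRF8-labelled cells, and -1.05 and -0.84 in control cells. It rose by 4.75 (SE 0.11; 26.9-fold) in KLF4-labelled against control cells (limma adjusted p = 4.32e-05). It was higher still in IRF8-labelled cells, 86.2-fold above control, so that its order of groups differed from that of osteocalcin, which stood highest in KLF4-labelled cells.

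Smg5, a factor of nonsense-mediated decay, and Sema4a, a semaphorin, each fell by 0.50 in KLF4-labelled against control cells (limma adjusted p = 0.0260 and 0.0208). Both calls were kept in 7 of 17 alternatives and were lost with median or spike-in scaling and without any 1 of the 6 arrays. Pmf1, a kinetochore gene and the nearest tested gene on the Bglap side, was at 3.69 and 3.79 in KLF4-labelled cells, 2.66 and 2.90 in IRF8-labelled cells, and 4.00 and 4.18 in control cells. Its difference between KLF4-labelled and control cells was -0.35 (SE 0.13, limma adjusted p = 0.112), and the adjusted p was 0.0174 with the experiment as a block. Paqr6, a progestin and adipoQ receptor gene and the nearest on the Bglap3 side, differed by -0.71 (SE 0.28, limma adjusted p = 0.131, and 0.0911 with the block).

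The remaining 5 tested neighbours had differences between -0.47 for Tsacc and 0.68 for Slc25a44 in KLF4-labelled against control cells, and none passed the threshold. With the block Tsacc, Cct3 and Tmem79 were called lower, and Glmp and Slc25a44 higher. In KLF4-labelled against IRF8-labelled cells 4 of the 10 neighbours rose and 3 fell, with a median of -0.25, where 50.5% of all tested genes were called (26.8% higher, 23.7% lower, median 0.01). In IRF8-labelled against control cells 4 rose and 5 fell, with a median of -0.18, where 61.5% of all tested genes were called (25.8% higher, 35.7% lower, median -0.13). Apart from Lmna, no tested neighbour differed between any 2 groups by more than Pmf1 did between IRF8-labelled and control cells, where it fell by 1.31.

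**Figure D2:**
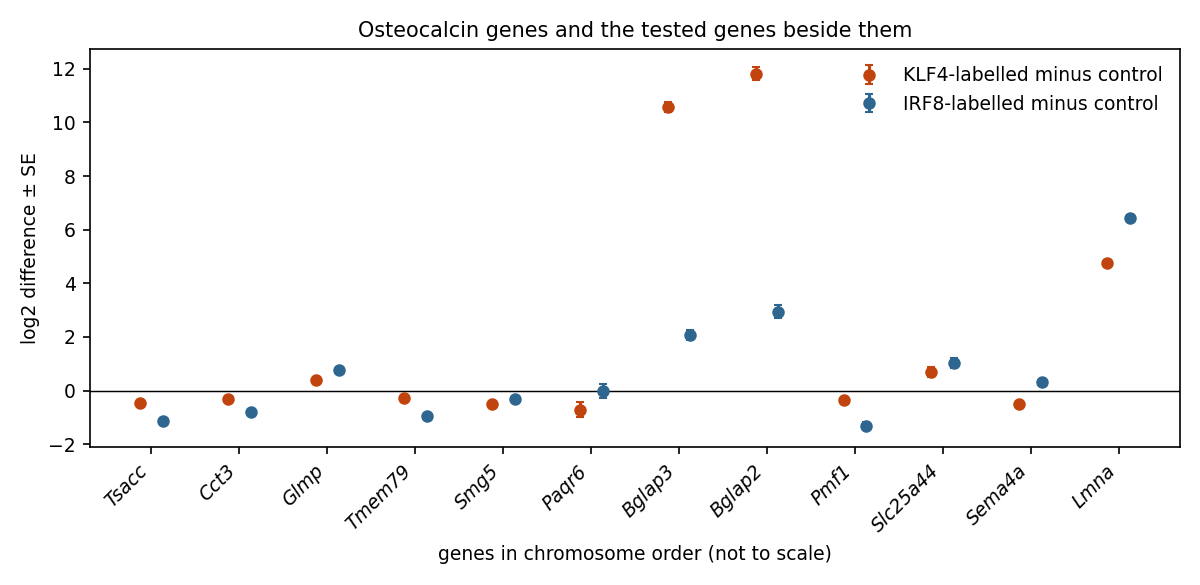
Log2 difference ± SE (y axis) of the osteocalcin genes and of the 10 tested genes beside them, in chromosome order (x axis, not to scale), for KLF4-labelled minus control and IRF8-labelled minus control cells, 2 arrays per group. Bglap3 and Bglap2 stand at 10.58 and 11.81 in KLF4-labelled cells, and Lmna is high in both comparisons at 4.75 and 6.43. The other neighbours lie between -1.31 (Pmf1) and 1.02 (Slc25a44), both in IRF8-labelled minus control cells.

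The known activators and repressors of osteocalcin genes moved in both directions, and no Runx gene was called higher in KLF4-labelled than in control cells. Of 30 listed factors 25 were tested, and in KLF4-labelled against control cells 6 rose and 2 fell, with a median of -0.05, beside 10.4% higher, 8.86% lower and a median of -0.16 over all tested genes. With the experiment as a block 9 rose and 6 fell, beside 16.5% and 34.4% of all tested genes. In KLF4-labelled against IRF8-labelled cells 4 rose and 8 fell (median -0.24), beside 26.8% and 23.7% of all tested genes, or 7 and 11 with the block, beside 35.5% and 31.8%. In IRF8-labelled against control cells 11 rose and 8 fell (median 0.71), beside 25.8% and 35.7%.

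Runx2, the master factor of osteoblasts, was at -2.39 and -2.51 in KLF4-labelled cells, -3.31 and -3.50 in IRF8-labelled cells, and -1.92 and -2.14 in control cells. Its difference between KLF4-labelled and control cells was -0.42 (SE 0.13, limma adjusted p = 0.0787, and 0.0115 with the block), and it fell by 1.38 in IRF8-labelled against control cells (limma adjusted p = 6.10e-04). In KLF4-labelled against IRF8-labelled cells Runx2 rose by 0.96 (limma adjusted p = 0.00315), a comparison in which osteocalcin was also higher. Control cells were highest for Runx2 and lowest for osteocalcin. Whether Runx2 has a part in the osteocalcin signal was not tested. Runx1, the Runx factor of blood cells, was at 3.11 and 3.04 in KLF4-labelled cells, 4.67 and 4.51 in IRF8-labelled cells, and 3.65 and 3.68 in control cells. Runx1 fell by 0.59 (1.51-fold) in KLF4-labelled against control cells (limma adjusted p = 0.0171), a call kept in 10 of 17 alternatives.

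Runx3 differed by -0.40 between KLF4-labelled and control cells (limma adjusted p = 0.238, and 0.0148 with the block). Cbfb, the shared partner of the Runx proteins, was at 5.26 and 5.38 in KLF4-labelled cells, 5.37 and 5.61 in IRF8-labelled cells, and 5.35 and 5.55 in control cells, and differed by -0.13 between KLF4-labelled and control cells (limma adjusted p = 0.498). Atf4, an activator of osteocalcin in osteoblasts, was above background on all arrays and differed by -0.39 (limma adjusted p = 0.0800, and 0.0154 with the block). Vdr, the vitamin D receptor, differed by -0.17 (limma adjusted p = 0.744). No one of these 4 genes was therefore called higher in KLF4-labelled than in control cells. Against IRF8-labelled cells Runx3 differed by 0.64 and Atf4 by 0.24 (limma adjusted p = 0.0627 and 0.150, and 0.00234 and 0.0279 with the block). Cbfb and Vdr differed there by -0.17 and -0.95 (limma adjusted p = 0.342 and 0.0801, and 0.0570 and 0.0406 with the block).

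The factors that rose in KLF4-labelled against control cells were Fos (6.28-fold, limma adjusted p = 3.72e-04), Fosl2 (5.15-fold, adjusted p = 1.90e-04), Foxo1 (3.21-fold, adjusted p = 9.38e-04), Junb, Cebpb and Rxra. Fos, Fosl2 and Junb are subunits of AP-1, and Foxo1 is a forkhead factor. Fos was at 1.63 and 1.84 in KLF4-labelled cells, 2.52 and 2.73 in IRF8-labelled cells, and -1.02 and -0.82 in control cells. In IRF8-labelled against control cells Fos, Fosl2 and Foxo1 rose as well, by 11.7-fold, 7.27-fold and 3.78-fold. Osteocalcin stood 4.20-fold to 7.67-fold above control there. Whether these factors have a part in the osteocalcin signal was not tested.

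The smaller rises depended more on the processing. Junb was 2.10-fold higher in KLF4-labelled cells than in control (limma adjusted p = 0.0136, kept in 12 of 17 alternatives). Cebpb, a basic leucine zipper factor, was 1.70-fold higher (adjusted p = 0.0132, kept in 13 of 17), and Rxra, the partner of the vitamin D receptor, 1.32-fold higher (adjusted p = 0.0301, kept in 7 of 17). Tle1, a corepressor, was 1.46-fold lower (adjusted p = 0.0472, kept in 5 of 17). Hey1, a Notch target, was above background only in IRF8-labelled cells, where it was at least 2.98-fold above control (limma adjusted p = 1.01e-04).

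**Figure D3:**
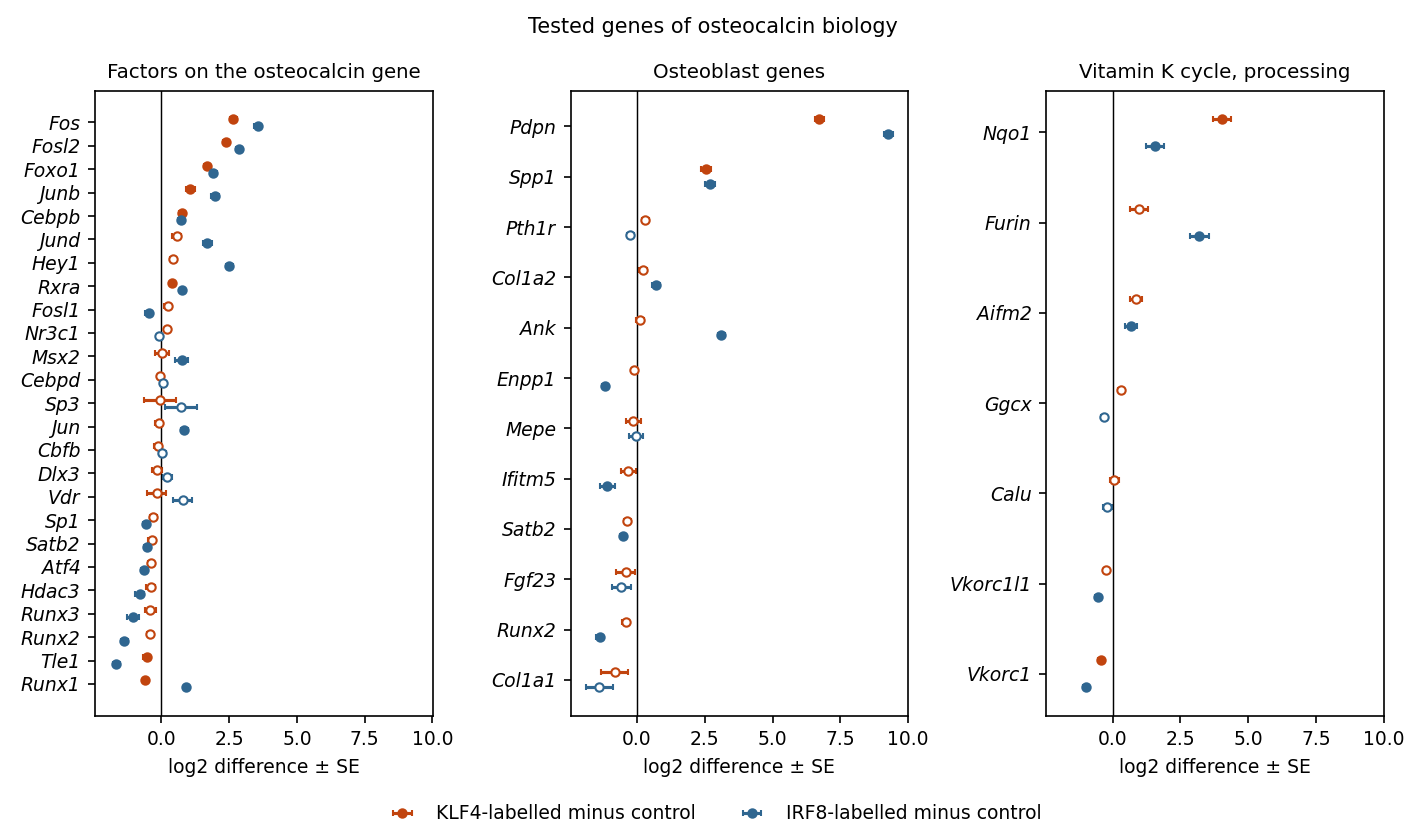
Log2 difference ± SE (x axis) of tested genes of 3 lists (factors on the osteocalcin gene, osteoblast genes, vitamin K cycle and propeptide processing), for KLF4-labelled minus control and IRF8-labelled minus control cells; filled points passed an adjusted p of 0.05 and open points did not, and the points of Pdpn, Nqo1 and Hey1 rest on control signals not above background. Pdpn lies farthest to the right, Fos and Fosl2 are high in both comparisons, and the Runx genes lie at or below 0 in KLF4-labelled cells.

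Of 25 listed genes of the osteoblast programme, all on the array, 12 were above background in enough arrays to be tested, and in KLF4-labelled against control cells 2 rose and 0 fell, with a median of -0.12, beside 10.4% and 8.86% of all tested genes. With the block 2 rose and 2 fell, beside 16.5% and 34.4%. Alpl, tissue-nonspecific alkaline phosphatase, joined Sp7, Dmp1 and Phex in being above background on no array. Ibsp, bone sialoprotein, was above background only on the first control array, at -1.61, and lay at -6.81 or lower on the other 5. Sparc, osteonectin, was above background on 1 of the 2 arrays of every group and was not tested.

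The 2 genes that rose were Spp1 and Pdpn. Spp1, which encodes osteopontin and is also made by macrophages, averaged 3.09 in KLF4-labelled cells, 3.23 in IRF8-labelled cells and 0.55 in control cells. It rose 5.81-fold in KLF4-labelled and 6.40-fold in IRF8-labelled cells against control (limma adjusted p = 0.00111 and 2.41e-04). KLF4-labelled and IRF8-labelled cells differed in Spp1 by -0.14 (SE 0.18, adjusted p = 0.567), where osteocalcin differed by 8.51 to 8.87.

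Pdpn, podoplanin, a membrane glycoprotein of osteocytes and lymphatic vessels, was at -0.11 and 0.15 in KLF4-labelled cells, 2.42 and 2.71 in IRF8-labelled cells, and -6.59 and -6.83 in control cells. It was at least 28.5-fold higher in KLF4-labelled and at least 166-fold higher in IRF8-labelled cells than in control, where it was not above background. Ank, a pyrophosphate transporter, rose 8.62-fold in IRF8-labelled against control cells (limma adjusted p = 7.36e-05) and differed by 0.10 in KLF4-labelled against control cells (adjusted p = 0.603). Col1a1, a collagen chain of bone matrix, differed by -0.82 between KLF4-labelled and control cells (SE 0.50, adjusted p = 0.284). In IRF8-labelled against control cells 4 of the 12 genes rose and 4 fell (median -0.39), beside 25.8% and 35.7% of all tested genes. In KLF4-labelled against IRF8-labelled cells 3 rose and 3 fell (median 0.16), beside 26.8% and 23.7%.

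The enzymes that modify and cut osteocalcin were followed next. All 8 listed genes of the vitamin K cycle and propeptide processing were tested, and in KLF4-labelled against control cells 1 rose and 1 fell (median 0.18), beside 10.4% and 8.86% of all tested genes. With the block 2 rose and 3 fell, beside 16.5% and 34.4%. Ggcx, the γ-glutamyl carboxylase, was at -1.18 and -1.04 in KLF4-labelled cells, -1.80 and -1.67 in IRF8-labelled cells, and -1.32 and -1.49 in control cells. It rose by 0.62 in KLF4-labelled against IRF8-labelled cells (limma adjusted p = 0.00818, kept in 14 of 17 alternatives) and differed by 0.30 from control (adjusted p = 0.124).

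Vkorc1, the vitamin K epoxide reductase, was at 4.91 and 4.95 in KLF4-labelled cells, 4.37 and 4.39 in IRF8-labelled cells, and 5.30 and 5.45 in control cells. It fell by 0.45 in KLF4-labelled against control cells (limma adjusted p = 0.0321, kept in 5 of 17 alternatives). Nqo1, a quinone reductase, was above background only in KLF4-labelled cells, at -2.83 and -2.68, and was there at least 4.16-fold above control (limma adjusted p = 0.00188). 

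Furin, a protease that cuts the propeptide from osteocalcin, was at 2.74 and 3.32 in KLF4-labelled cells, 4.99 and 5.54 in IRF8-labelled cells, and 1.71 and 2.41 in control cells. It rose 9.19-fold in IRF8-labelled against control cells (limma adjusted p = 0.00102), and in KLF4-labelled against control cells differed by 0.97 (adjusted p = 0.111, and 0.00307 with the block). In KLF4-labelled against IRF8-labelled cells 5 of the 8 genes rose and 1 fell (median 0.44), beside 26.8% and 23.7% of all tested genes, the gene that fell being Furin. In IRF8-labelled against control cells 3 rose and 3 fell (median -0.26), beside 25.8% and 35.7%, or 2 and 5 with the block, beside 31.3% and 43.8%. Both counts of genes that rose include Nqo1, which was not above background in either of these groups. Over the other 7 genes the median was -0.33.

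Of 14 listed genes of other vitamin K-dependent proteins 7 were tested, and Mgp, the matrix Gla protein, and Ucma, a Gla protein of cartilage, were above background on no array. In KLF4-labelled against control cells 1 rose and 1 fell (median 0.11), beside 10.4% and 8.86% of all tested genes, or 2 and 2 with the block, beside 16.5% and 34.4%. In KLF4-labelled against IRF8-labelled cells 0 rose and 5 fell (median -1.04), beside 26.8% and 23.7%, and in IRF8-labelled against control cells 5 rose and 1 fell (median 1.15), beside 25.8% and 35.7%.

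Gas6, a ligand of the TAM receptors, was at -2.66 and -2.84 in KLF4-labelled cells, 2.06 and 1.89 in IRF8-labelled cells, and -5.66 and -4.88 in control cells, of which 1 array was above background. It rose 5.73-fold in KLF4-labelled and 151-fold in IRF8-labelled cells against control (limma adjusted p = 0.00437 and 4.54e-05). Pros1, protein S, rose 3.89-fold in IRF8-labelled against control cells (limma adjusted p = 5.24e-05). Between KLF4-labelled and control cells Pros1 differed by 0.22 (limma adjusted p = 0.103, and 0.0251 with the block). Prrg4, a transmembrane Gla protein, fell by 1.01 in KLF4-labelled against control cells (limma adjusted p = 0.0269, kept in 10 of 17 alternatives). Without the block, the genes of this list that fell in KLF4-labelled against IRF8-labelled cells were Gas6, Pros1, Prrg2, F7 and F10. IRF8-labelled cells held each of them at a higher level than control. With the block F9 fell as well (by 0.47, limma adjusted p = 0.0327), and it differed by -0.03 between IRF8-labelled and control cells. These genes were all named here after their values were seen.

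The receptors reported for osteocalcin, Gprc6a, Gpr158 and Gpr37, were not above background on any array and were not tested. Of 10 vitamin D genes 9 were tested, and in KLF4-labelled against control cells 1 rose (Rxra) and 1 fell (Pdia3, a protein disulfide isomerase, by 0.46, limma adjusted p = 0.0242, kept in 7 of 17 alternatives), with a median of -0.08, beside 10.4% and 8.86% of all tested genes. With the block 2 rose and 2 fell, beside 16.5% and 34.4%. In IRF8-labelled against control cells 3 rose and 2 fell (median 0.34), beside 25.8% and 35.7%, and in KLF4-labelled against IRF8-labelled cells 1 rose and 2 fell (median -0.33), beside 26.8% and 23.7%. Cyp27a1, a sterol hydroxylase that acts on vitamin D, was above background only in IRF8-labelled cells, at least 5.38-fold above control (limma adjusted p = 7.85e-05). Cyp24a1, a known target of the vitamin D receptor that inactivates the hormone, was above background only on the first KLF4-labelled array and was not tested.

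Genes were then ranked by how closely their 6 log2 signals followed those of Bglap3, each centred on its own mean, with the root mean square difference as the measure of likeness. Bglap2 came first at 0.52, followed by Cfb at 0.74, Mall at 1.04, Tgm2 at 1.39, Cers3, Car6 at 1.64, Anxa8 at 1.83, Lims2 at 1.84, Cd9 at 1.89 and Cd300e at 2.02. The Pearson correlation of these 10 genes with Bglap3 over the 6 arrays lay between 0.941 and 0.999, which describes arrays that share 3 group levels. Like the osteocalcin genes, they were chosen by their signal, and no test of their differences is given.

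Cfb, complement factor B, was at 2.63 and 2.54 in KLF4-labelled cells, -4.41 and -4.82 in IRF8-labelled cells, and -6.28 and -7.27 in control cells, in which it was not above background, so that KLF4-labelled cells were at least 168-fold above control. Mall, a MAL-like membrane proteolipid, was above background only in KLF4-labelled cells, at 2.32 and 2.53, at least 151-fold above control. Tgm2, a transglutaminase, was above background on all 6 arrays by its brightest probe, at 4.90 and 4.96 in KLF4-labelled cells, -1.07 and -1.02 in IRF8-labelled cells, and -2.43 and -2.45 in control cells. Another Tgm2 probe was at 4.94 and 4.93, -1.51 and -1.47, and -6.25 and -5.37 in the same order of groups. The Tgm2 level in control cells thus depended on the probe. By their brightest probes only Tgm2 and Cd9, a tetraspanin, among the 10 genes were above background on every array. By these probes they stood 165-fold and 240-fold above control in KLF4-labelled cells. The Anxa8 probe is one that the deposited value table holds differently, with a difference between KLF4-labelled and control cells of 1.07 there, against 7.40 from the processed signal.

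**Figure D4:**
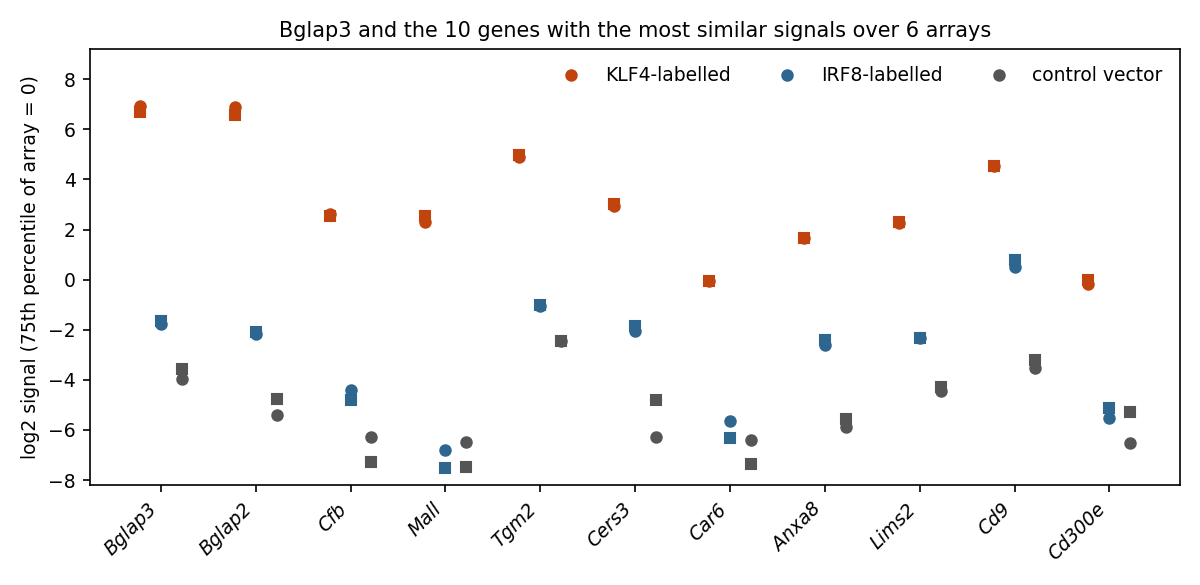
Log2 signal (y axis, 75th percentile of each array set to 0) of Bglap3 and the 10 genes most like it (x axis) on the KLF4-labelled, IRF8-labelled and control arrays; circles and squares are the arrays of the first and second experiment. In every gene the KLF4-labelled arrays are highest, and the control signals of most lie at or near background.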

How the data were processed

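Total RNA from 6 cultures (3 groups, 2 each) was hybridised singly to Agilent mouse arrays. Per the file headers, the deposited values are intensity (processed spot signal) that Agilent Feature Extraction 10.7.3.1 wrote after subtracting background and detrending each array, without normalization between arrays. The deposited value table holds the same intensity times 1 factor per array (0.642 to 1.388) for all but a few probes: 99.7% to 99.8% of values lay within 1% of that product. Aligners and builds do not apply, and the array design names mm9.

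Control spots and 75 probes with marked spots were left out. The measure was log2 of processed signal over the 75th percentile of that array's non-control spots. Accessions were matched to genes in RefSeq's annotation (GRCm38.p6): 26762 probes and 20284 genes matched. A gene was represented by its brightest probe over all arrays (5405 genes had several), and tested if both arrays of any group called that probe well above background (13247 genes). One limma fit (3.58.1, R 4.3.3; lmFit, eBayes, no covariates) with Benjamini-Hochberg adjustment at 0.05 gave the adjusted p values, and was tested on simulated data. For a group not above background, "at least" folds set the brighter mean against the lowest signal well above background on each array, or the probe's own signal where higher.

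Replicate numbers were taken to mark the 2 experiments, which the labels do not state. Same-numbered arrays deviated together (r = 0.282 for control with IRF8, 0.321 for control with KLF4 and 0.391 for IRF8 with KLF4). Their 75th percentile was 436 to 551 on first-numbered and 852 to 974 on second-numbered arrays, which cannot be told apart from the experiment. The fit with the experiment as a block is given where it changes a printed call or moves a count by over 1.5 times. Separate cultures are stated only as independent experiments. Named genes were all osteocalcin probes, the 10 annotated genes on each side, up to 4 called genes per list with the largest change against control in each of both comparisons, fixed genes of osteocalcin biology, the 10 most similar genes and the neighbours in rank. The osteocalcin genes, the lists and the markers were chosen with earlier results of these data known. The normexp alternative used median spot signals. Array probe sequences were not used here. One gene of the vitamin K list is counted but not reported here by name.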

Additional observations from a re-analysis of the deposited data

How the results depend on the processing

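The 3 osteocalcin differences kept their sign in all 17 alternatives that gave one for both genes, namely 11 other settings and the omission of each of the 6 arrays; with only genes above background on all 6 arrays they gave no value. The normexp background moved Bglap2 to 9.72, 8.36 and 1.36 and Bglap3 to 9.16, 8.04 and 1.12 (KLF4-labelled minus control, KLF4-labelled minus IRF8-labelled, IRF8-labelled minus control). A floor on dim signals moved Bglap2 to 11.27 against control in KLF4-labelled and 2.40 in IRF8-labelled cells. The mean over probes, which includes the dim one, moved Bglap3 to 7.22, 5.70 and 1.52. For KLF4-labelled minus IRF8-labelled cells, Bglap3 was 8.67 with median and 8.66 with spike-in scaling. Without 1 array, Bglap2 spanned 11.49 to 12.13, 8.72 to 9.03 and 2.62 to 3.26, and Bglap3 10.37 to 10.78, 8.39 to 8.62 and 1.86 to 2.28.

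Calls in KLF4-labelled against control cells (2547) numbered 6744 with the replicate block, 1499 with median scaling, 869 with spike-in scaling, 989 with normexp, 974 with no filter on dim probes, and 883 to 1499 without 1 array: 1186 and 1413 without the first or second control array, 1499 without either IRF8-labelled array, 915 and 883 without the first or second KLF4-labelled array. The share of these calls that were higher was 53.9%, and 87.8%, 89.4% and 82.6% with median scaling, spike-in scaling and normexp, 67.1% with quantile normalization, 65.1% with the deposited value table, 84.7% without a filter, and 32.4% with the block. Median scaling moved the median of all genes to -0.04 in this comparison and to 0.17 in KLF4-labelled minus IRF8-labelled cells, where 65.0% of calls were then higher, as against 53.1%. KLF4-labelled against IRF8-labelled cells (6695) gave 2686 with spike-in scaling and 11045 over single probes, and IRF8-labelled against control cells (8147) gave 4651 and 14700. For single neighbouring genes 433 values kept sign and side, 55 lost and 19 gained the call, and 3 reversed: Paqr6 in IRF8-labelled minus control cells, at -0.02, was 0.23 with the mean over probes, 0.05 without the first IRF8-labelled array and 0.39 without the second control array, within -0.43 to 0.39 over the omissions. The cause was not tested, beyond fewer samples where an array was left out. Signals near background limit the size of every fold against control.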

Other observations

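Some probes whose accessions were matched to no gene followed the osteocalcin probes. A_55_P2106800, numbered beside them in the array design, was at 3.75 and 3.38 in KLF4-labelled cells, -3.58 and -4.22 in IRF8-labelled cells, and -5.31 and -4.66 in control cells, a difference of 8.55 between KLF4-labelled and control cells and of 7.46 between KLF4-labelled and IRF8-labelled cells. A_55_P2106798, with the same accession, was not above background on any array. A_55_P2175146 was at 1.46 and 1.46 and A_55_P2175145 at 0.07 and 0.28 in KLF4-labelled cells, and neither was above background in control cells. No gene is named for these probes. Among genes above background on all 6 arrays, those most like Bglap3 after Tgm2 and Cd9 were Gngt2, Pakap, Thy1, Rhoc, Fgr, Timp2, Il1rn and Oas2.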
